A study of Solanum lycopersicum with 4 samples.

Results

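Leaves of tomato (Solanum lycopersicum, cultivar Moneymaker) held for 3 h at 10 °C were compared with leaves at 0 h, in order to describe how leaf transcripts stand at the start of a chilling treatment. The comparison was defined by library title and used 2 of the 4 RNA-seq libraries of the study, 1 at 3 h and 1 at 0 h. The libraries at 24 and 48 h entered the scaling and the gene filter, and they gave the later levels described below. It covered 13840 of the 26219 genes that had at least 1 read in any library. These are the genes with reads in all 4 libraries and a mean of at least 5 CPM, where CPM is the count per 1000000 reads of a library after TMM scaling, which sets aside genes that differ most.

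Both libraries came from the first pair of true leaves of seedlings 3 weeks old. Seeds germinated for 5 days in the dark. Growth then lasted 16 days at 25 °C with a light intensity of 100 µmol m-2 s-1. The 3 h leaves came from the cold treatment, at 10 °C with 40 µmol m-2 s-1. The 0 h group carries the same 10 °C in its title, with an exposure of 0 h, and its light at harvest is not stated. Days had 12 h of light in both settings, and the hour of harvest is not given in the sources used here. Cold and 3 h of the day cannot be told apart in this comparison. The same holds for lower light if the 0 h harvest preceded the shift. If all treatments began at the same hour, the 0, 24 and 48 h harvests share an hour of the day and the 3 h harvest does not. A level near that of 0 h at 24 and 48 h can then go with the hour as well as with the time in the cold, which was not tested. Each time had 1 library, so no difference below has a test or a replicate check. Intervals of single genes (95%, exact Clopper-Pearson) cover counting error only.

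Tomato is a chilling-sensitive plant. Chilling of leaves is sensed within minutes through membranes and calcium, and it sets off early waves of transcription factor genes and of hormone metabolism before slower changes in sugars, membrane lipids and photosynthesis. Abscisic acid is one of the hormones involved. Its level is set by synthesis from carotenoids and by breakdown, which begins with hydroxylation by cytochrome P450 enzymes of the CYP707A family. Receptor kinases with leucine-rich repeats (LRR) form another layer, since they carry hormone, developmental and immune signals across the plasma membrane.

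The lists identify genes by number, and most carry no name. Text left in the last cells of the 3 h list, with GO terms and a protein match, names 61 genes in whole or in part, and 41 of these were among the genes compared. The text belongs to its gene as far as could be checked. The 4 genes that also carried such text in the 24 h list carried the same text there, and all 6 genes whose match is a tomato protein in the RefSeq gene table had an identifier on the chromosome that the table gives. A match is the name of a similar protein, often of another species, and not a measured function. Photosynthesis genes that define a leaf were not among those named, so the tissue was not checked by its markers.

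The largest difference among named genes was in abscisic acid breakdown. Solyc08g005610.2.1 on chromosome 8, matched to the potato ABA 8'-hydroxylase CYP707A1, had 3460 reads at 3 h and 132 reads at 0 h. On the scaled level this was 107 CPM at 3 h and 3.65 CPM at 0 h. Its level was 29.2-fold higher at 3 h (24.6 to 35.1), and its log2 ratio of 4.82 was number 9 from the top among the 13840 genes. Log2 ratios include a pseudocount of 5 reads (0.135 CPM), and folds of single genes do not. Later levels were back near that of 0 h, at 3.21 CPM at 24 h and 4.96 CPM at 48 h. In whole leaves, more cells with a transcript and more of it per cell cannot be told apart. Reads covered 99.88% of the gene at 3 h and 87.74% at 0 h.

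A second gene of this kind had few reads. Solyc08g075320.2.1, also on chromosome 8 and matched to the potato ABA 8'-hydroxylase CYPA3 variant 1, had 16 reads at 3 h and none at 0 h. With 3 reads taken as the limit for a count of 0, its 3 h level was 5.95-fold above that limit. This leaves out the counting error of the 16 reads. It had 9 reads at 24 h and 107 reads at 48 h, and it was below the filter on low levels. The 2 genes therefore had their highest level at different times, the first at 3 h and the second at 48 h.

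At the other end stood a gene of sterol metabolism. Solyc02g070580.1.1 on chromosome 2 is matched to the tomato sterol 22-desaturase, listed by RefSeq as CYP710A11, an enzyme family that converts sitosterol into stigmasterol in plant membranes. At 3 h it had 348 reads, which is 10.7 CPM, and at 0 h it had 1801 reads, which is 49.8 CPM. This is 4.64-fold lower at 3 h (4.13 to 5.22), and the log2 ratio was -2.20. It remained below 0 h later, at 22.2 CPM at 24 h and 18.3 CPM at 48 h. This was 1 of the 8 genes at least 4-fold lower at 3 h. Another sterol gene, Solyc01g008110.2.1, matched to the tomato obtusifoliol 14alpha-demethylase of the step common to all sterols, had 464 CPM at 3 h and 493 CPM at 0 h, a log2 ratio of -0.09.

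The families of named genes were read against the shares over all 13840 genes. A 4-fold or larger difference from 0 h was seen at 3 h in 1.42% of genes upward and in 0.0578% downward. For a 2-fold or larger difference these shares were 4.76% upward and 1.13% downward. The 24 h and 48 h libraries, set against the same 0 h library, passed 4-fold upward in 2.17% and 2.06% of genes and downward in 1.39% and 1.29%.

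Cytochrome P450 enzymes hydroxylate hormones, sterols, carotenoids and defence compounds. The files name 26 of them, of which 12 passed the filter. Of the 12, 1 passed 4-fold upward at 3 h and 1 downward, and these are the hydroxylase and the desaturase above. Another was 2- to 4-fold higher. Within 2-fold lay 9 of the 12, beside 94.1% of all genes compared, and within 1.5-fold 7 of the 12, beside 86.5%. The median log2 ratio of the 12 was -0.03, beside 0.0024 for all genes compared. The 14 that did not pass had at most 130 reads at 3 h and 131 at 0 h. With so few genes named, these counts do not describe the whole family in tomato.

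Genes matched to 1 tobacco enzyme, CYP71AT2v2, did not move as a block. Solyc11g006590.1.1 on chromosome 11 had 129 CPM at 3 h and 51.8 CPM at 0 h, 2.49-fold higher (2.35 to 2.63). At 24 and 48 h it had 39.6 and 46.7 CPM, both under the 0 h level. On chromosome 9, where 5 genes with this match lie close together by their identifiers, 3 passed the filter. Solyc09g092670.2.1 had 94.5 CPM at 3 h and 106 CPM at 0 h, Solyc09g092640.2.1 had 5.71 and 9.38 CPM at 3 h and 0 h, and Solyc09g092620.2.1 had 4.26 and 3.85 CPM at 3 h and 0 h. Their log2 ratios were -0.16, -0.70 and 0.14. If unique reads leave out those that match several copies, counts of such near neighbours may be too low.

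The files name 3 genes of carotenoid metabolism, the pathway from which abscisic acid is made. Solyc02g090890.2.1, matched to the tomato zeaxanthin epoxidase that makes violaxanthin, had 750 CPM at 3 h and 779 CPM at 0 h, a log2 ratio of -0.05. At 24 and 48 h the same gene had 263 and 292 CPM. The carotene hydroxylases CYP97A29 (Solyc04g051190.2.1) and CYP97C11 (Solyc10g083790.1.1), which act in lutein synthesis, had log2 ratios of 0.17 and 0.04. CYP97A29 had 103 CPM at 3 h and 91.8 CPM at 0 h, and CYP97C11 had 53.8 CPM at 3 h and 52.4 CPM at 0 h. A gene matched to stress enhanced protein 1, a thylakoid protein related to light-harvesting proteins in Arabidopsis (Solyc01g107660.2.1), had 155 CPM at 3 h and 133 CPM at 0 h, a log2 ratio of 0.22. Genes matched to the mitochondrial ATP synthase subunit delta' (Solyc05g052150.2.1) and to a protein arginine methyltransferase (Solyc12g099560.1.1) were level too, with 33.6 and 34.1 CPM at 3 h and 35.5 and 32.1 CPM at 0 h.

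Some further P450 genes are given by their values. Solyc02g065220.2.1, matched to geraniol 8-hydroxylase CYP76B6, an enzyme of monoterpenoid synthesis in Catharanthus, had 49.3 CPM at 3 h and 84.0 CPM at 0 h, a level 1.70-fold lower (1.60 to 1.81). It was at 81.3 CPM at 24 h and 74.1 CPM at 48 h. Solyc08g081220.1.1, matched to a Petunia protein whose shortened name reads acid omega-hydroxylase, had 29.4 CPM at 3 h and 39.4 CPM at 0 h. The gene matched to MAX1, which acts in strigolactone synthesis in Arabidopsis (Solyc08g062950.2.1), had 5.22 CPM at 3 h and 5.04 CPM at 0 h. Among those below the filter, the 71D8-like match Solyc02g092250.2.1 had the most reads at 3 h, 130, against 94 reads at 0 h, which is 1.54-fold higher (1.17 to 2.03).

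Most of the named protein kinases compared, largely receptor kinases, lay near their 0 h level, as did most genes. The files name 27, and 21 passed the filter. None was 4-fold different, 1 was at least 2-fold higher and 20 lay within 1.5-fold. Of all genes compared, 86.5% lay within 1.5-fold and 94.1% within 2-fold, so these counts are no trait of kinases. Log2 ratios of the 21 ran from -0.56 to 1.87 with a median of 0.01. The 1 that stood out, Solyc02g070890.2.1 on chromosome 2, is matched to a grapevine FLS2-like kinase. FLS2 is the receptor for bacterial flagellin in Arabidopsis. The 673 reads of Solyc02g070890.2.1 at 3 h are 20.8 CPM and its 202 reads at 0 h are 5.59 CPM, which is 3.72-fold higher at 3 h (3.17 to 4.37), and then 8.08 CPM at 24 h and 5.82 CPM at 48 h. A near neighbour with the same match, Solyc02g070910.1.1, had 28.7 CPM at 3 h and 38.9 CPM at 0 h, 1.35-fold lower (1.24 to 1.47). The intervals of these 2 genes lie on opposite sides of no difference. Among the 6 kinases below the filter, Solyc09g064520.2.1 had 125 reads at 3 h and 252 reads at 0 h, 1.81-fold lower (1.45 to 2.26). Solyc03g115610.2.1 had 61 reads at 3 h and 38 reads at 0 h, 1.79-fold higher (1.18 to 2.76). With so few genes named, the counts do not describe all kinases of tomato.

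Hormone and developmental receptors differed by less. Solyc04g051510.1.1, matched to the tomato brassinosteroid receptor BRI1, had 139 CPM at 3 h and 92.8 CPM at 0 h, 1.50-fold higher (1.43 to 1.56), and 95.8 and 95.7 CPM at 24 and 48 h. The somatic embryogenesis receptor kinases, co-receptors for BRI1 and for immune receptors in Arabidopsis, were within 1.25-fold. SERK1 (Solyc04g072570.2.1) had 30.3 CPM at 3 h and 26.6 CPM at 0 h, SERK3A (Solyc10g047140.1.1) had 18.7 CPM at 3 h and 17.8 CPM at 0 h, and SERK3B (Solyc01g104970.2.1) had 26.9 CPM at 3 h and 31.8 CPM at 0 h. The gene matched to ERECTA, which acts in stomatal and organ patterning in Arabidopsis (Solyc08g061560.2.1), had 84.0 CPM at 3 h and 102 CPM at 0 h. The tomato CLAVATA1 match, a meristem receptor kinase in Arabidopsis (Solyc02g091840.2.1), had 129 CPM at 3 h and 168 CPM at 0 h. Further matches are to relatives of BRI1 and of HAESA, the receptor of organ abscission in Arabidopsis. The BRI1-like 2 match (Solyc04g008430.1.1) had 8.36 CPM at 3 h and 7.06 CPM at 0 h. The HSL1-like matches Solyc02g077630.2.1 and Solyc07g053600.2.1 had log2 ratios of -0.10 and -0.09, the first with 30.6 CPM at 3 h and 32.9 CPM at 0 h, and the HSL2-like match (Solyc02g091860.2.1) had 14.6 CPM at 3 h and 14.4 CPM at 0 h. Another HSL1-like match, Solyc03g006300.1.1, was below the filter and had 133 reads at 3 h and 207 reads at 0 h, 1.40-fold lower (1.12 to 1.75). A second brassinosteroid receptor match, Solyc09g015520.2.1, had 22.7 CPM at 3 h and 21.7 CPM at 0 h. Consecutive identifiers on chromosome 1, both matched to protein kinases of Ipomoea nil, were near level at 3 h and diverged later. Solyc01g007980.2.1 had 17.4, 21.6, 9.42 and 8.65 CPM at 0, 3, 24 and 48 h. Solyc01g007990.2.1 had 7.66, 7.75, 24.7 and 26.7 CPM at those times. The counting interval lay wholly to 1 side of no difference in 12 of the 21 kinases. The same held in 25 of the 41 named genes compared, kinases included. The share over all genes compared is not given here, so this count is no result about kinases. With 1 library per time it says nothing of the spread between plants.

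**Figure D1:**
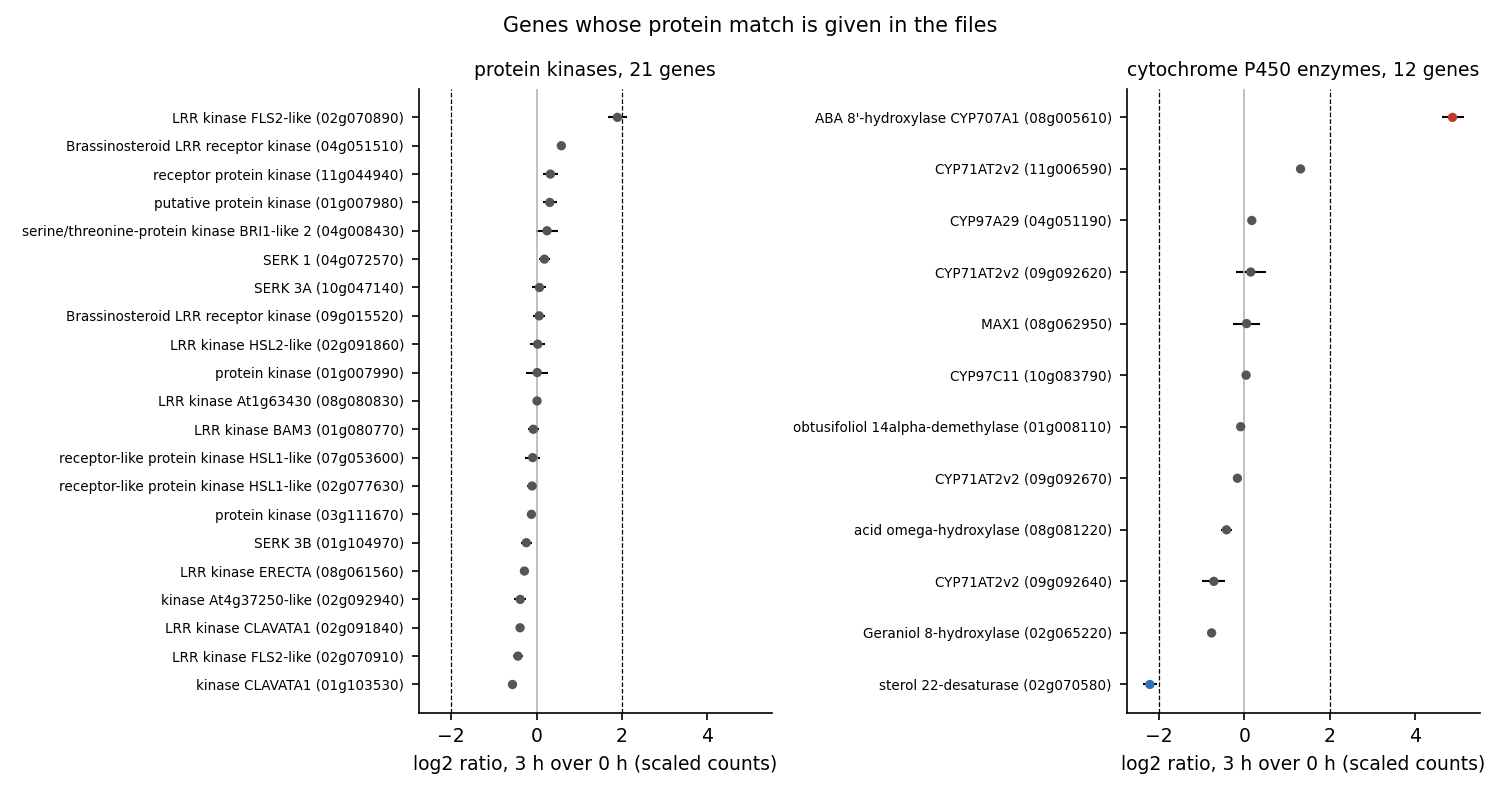
Log2 ratio of scaled counts (3 h over 0 h, no pseudocount) for each named protein kinase (left, 21 genes) and cytochrome P450 (right, 12 genes) that passed the filter; points are genes, labelled by protein match and identifier, bars are 95% counting intervals and dashed lines mark 4-fold. The ABA 8'-hydroxylase CYP707A1 match (red) and the sterol 22-desaturase match (blue) lie beyond the lines, and 20 of the 21 kinases lie within 1.5-fold.

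Over all genes, most transcripts were level and the large differences were nearly all upward. Of the 13840 genes, 9820 (71.0%) lay within 1.25-fold of 0 h and 13025 (94.1%) within 2-fold. The middle of the distribution was even, with quartiles of log2 ratio at -0.18 and 0.18. The tails were not, with 1.00% of genes below -1.05 and 1.00% above 2.27. Of the genes 2- to 4-fold different, 462 were higher and 148 lower at 3 h. From 4-fold on, 197 were higher and 8 lower, from 8-fold on 70 (0.506% of all) and 1 (0.00723%), and from 16-fold on 20 (0.145%) and 0. The higher gene nearest the 4-fold limit had a ratio of 4.01-fold and the nearest outside it 3.97-fold.

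**Figure D2:**
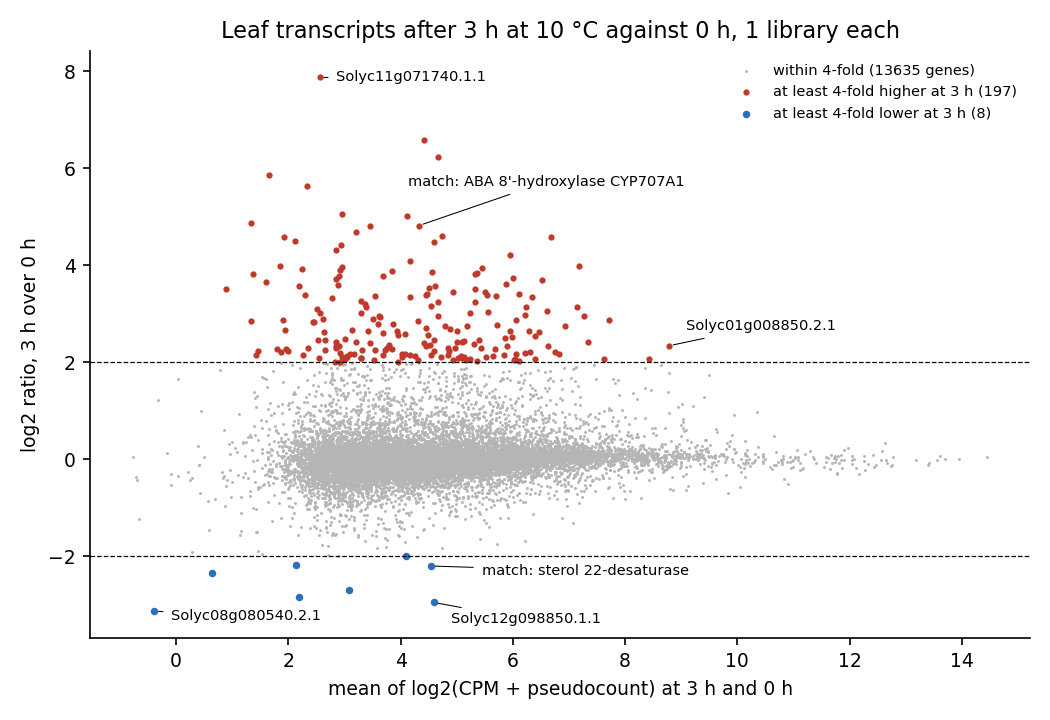
Log2 ratio of each gene (3 h over 0 h, vertical axis) against the mean of its log2(CPM + pseudocount) at 3 h and 0 h (horizontal axis), with 4-fold limits dashed. The 197 genes at least 4-fold higher (red) reach a log2 ratio of 7.87, and the 8 at least 4-fold lower (blue) reach -3.13.

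How uneven the counts were depended on the transcript level and on the level filter. Among genes with a mean of 5 to 10 CPM, 5.74% stood 2-fold or more above 0 h at 3 h, and 2.32% stood as far below. Among the 911 genes at 100 to 200 CPM the shares were 3.95% and 0.22%. From 200 to 500 CPM 15 genes, and above 500 CPM 7 genes, were 2-fold or more higher, and none was as much lower. The mean includes the 3 h library, so genes can enter a class through their 3 h level. Classed by the 0 h level instead, 9 genes were 2-fold or more higher and 1 lower of 412 at 200 to 500 CPM, and 0 in either direction of 233 above 500 CPM. Genes with a low 0 h level pass a filter on the mean of the 4 libraries only when another library is higher, and 82 of the 197 higher genes were under 5 CPM at 0 h. With a filter on the 0 h library alone, the 4-fold counts were 115 higher and 14 lower. With a filter on the 3 h library alone they were 248 higher and 3 lower. The higher genes outnumbered the lower ones under each of these filters.

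**Figure D3:**
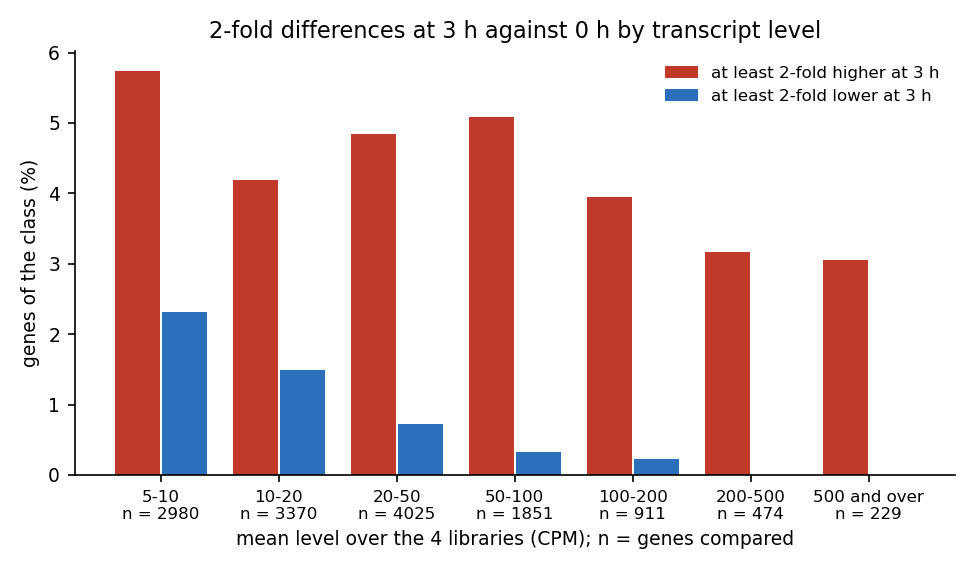
Percent of genes at least 2-fold higher (red) or lower (blue) at 3 h than at 0 h, in classes of mean level over the 4 libraries (CPM), with the number of genes compared under each class. The higher share is 5.74% in the lowest class and 3.06% in the highest, while the lower share is 2.32% in the lowest class and 0 from 200 CPM on.

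The 197 higher genes were below the typical gene in level at 0 h and above it at 3 h. Their median was 53.5 CPM at 3 h (quartiles 21.5 and 124 CPM) and 6.64 CPM at 0 h (3.04 and 16.4 CPM). All genes compared had medians of 21.9 CPM at 3 h and 21.2 CPM at 0 h. Together the 197 genes took 1.69% of the reads at 3 h and 0.256% at 0 h. They were selected for this difference, so these values describe it and are no support for it. The authors' RPKM, which is per gene length, gave them a median of 41.5 at 3 h and 5.36 at 0 h.

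In 172 of the 197 (87.3%) the 3 h library was the highest of the 4, in 17 it was the 24 h library and in 8 the 48 h library. Among all genes compared the 3 h library was the highest in 24.3%. The 197 were selected for a high 3 h level against 0 h, which favours this order, so the counts describe them and support nothing further. The 3 h level was at least 2-fold above both later levels in 148 genes and at least 4-fold above both in 96. The median of all 197 was 12.1 CPM at 24 h and 14.0 CPM at 48 h, above the 6.64 CPM of 0 h. In 61 genes the 24 h level was below that of 0 h, and in 49 the 48 h level. Selection by the ratio to 0 h also favours genes low at 0 h. These medians and counts therefore describe the 197 only, and the shares over all genes are not given here.

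**Figure D4:**
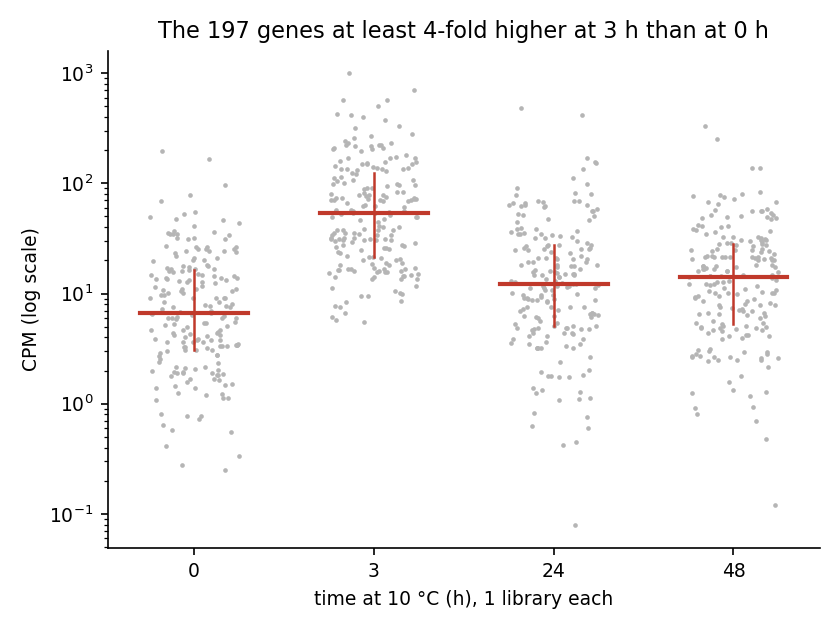
Level (CPM, log scale) of the 197 genes at least 4-fold higher at 3 h than at 0 h, in each of the 4 libraries; grey points are genes, red bars the median and the quartiles. The medians are 6.64, 53.5, 12.1 and 14.0 CPM at 0, 3, 24 and 48 h.

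The highest ratio belonged to Solyc11g071740.1.1 on chromosome 11, for which the files give no name. It had 89.9 CPM at 3 h and 0.25 CPM at 0 h, then 0.76 and 0.48 CPM at 24 and 48 h. Its reads covered 99.34% of its 606 bases at 3 h and 41.91% at 0 h. The largest gain in level belonged to Solyc01g008850.2.1 on chromosome 1, also without a name in the files. There were 32236 reads at 3 h and 7091 reads at 0 h, or 995 CPM at 3 h and 196 CPM at 0 h, which is 5.07-fold higher at 3 h (4.94 to 5.20). It was at 414 CPM at 24 h and 333 CPM at 48 h, so it was still above 0 h at both later times. The 20 genes with the largest ratios had from 437 to 16200 reads at 3 h and from 9 to 753 reads at 0 h, and 19 of them had their highest level at 3 h.

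The 8 lower genes ranged from 0.12 to 10.7 CPM at 3 h and from 2.13 to 67.0 CPM at 0 h. In 7 of them 3 h was the lowest of the 4 libraries, an order that their selection favours too. Their later levels differed: 3 were above 0 h at both 24 and 48 h, and another 3 were at least 2-fold below 0 h at both. The 3 above 0 h at both later times had 2.13, 3.38 and 9.21 CPM at 0 h. A gene on chromosome 3 had 18 reads at 3 h and 122 reads at 0 h, with 633 and 737 reads at 24 and 48 h. A gene on chromosome 1 had 63 reads at 3 h and 333 reads at 0 h, with 377 and 479 reads later. The chromosome 3 gene had 3.38 CPM at 0 h and 0.56 CPM at 3 h, and Solyc08g080540.2.1 had 2.13 and 0.12 CPM. Both passed the 5 CPM filter on the mean only through their 24 and 48 h levels, so the filter fixed their later rise above 0 h. Besides the desaturase, those that stayed low were a gene on chromosome 1 with 103 reads at 3 h and 773 reads at 0 h, and a gene on chromosome 9 with 272 reads at 3 h and 1229 reads at 0 h. Their reads at 24 and 48 h were 141 and 202 for the first and 219 and 338 for the other. The largest loss of level belonged to Solyc12g098850.1.1 on chromosome 12, without a name in the files. Its reads numbered 277 at 3 h and 2423 at 0 h, or 8.55 CPM at 3 h and 67.0 CPM at 0 h, which is 7.84-fold lower at 3 h (6.92 to 8.91). It was at 47.1 CPM at 24 h and 45.0 CPM at 48 h, between the 3 h and 0 h levels. The smallest ratio, of Solyc08g080540.2.1 on chromosome 8, rested on 4 reads at 3 h and 77 reads at 0 h.

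**Figure D5:**
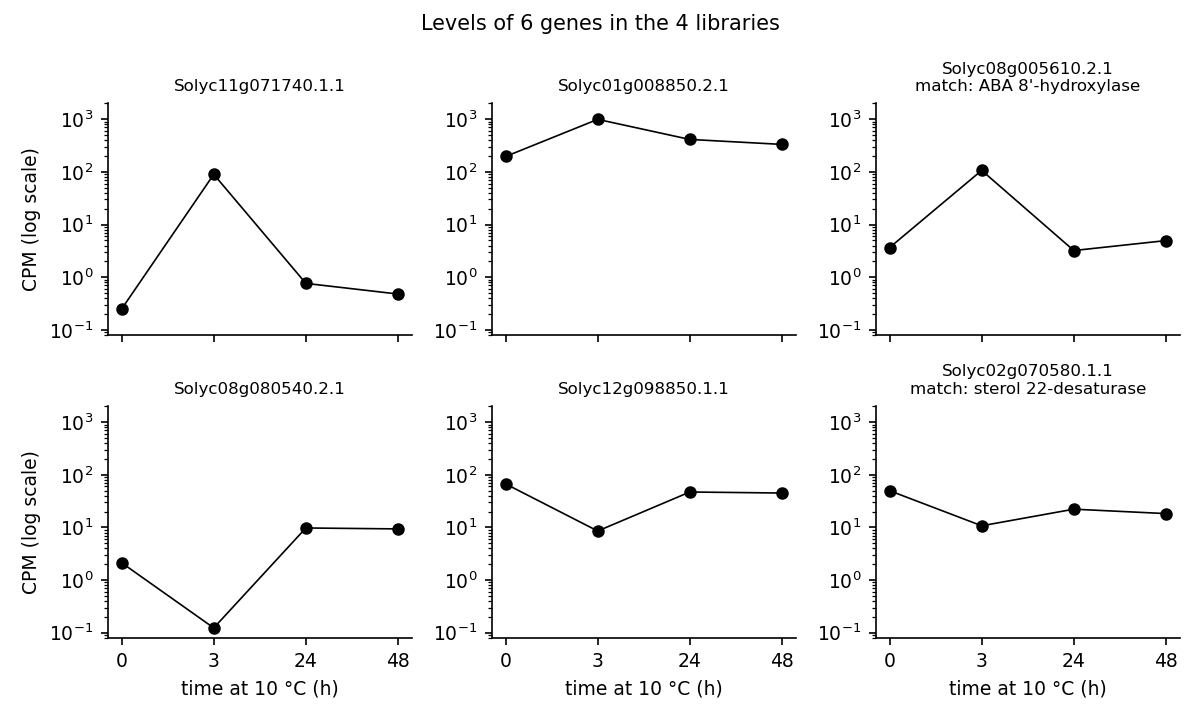
Level (CPM, log scale) of 6 genes in the 4 libraries by time at 10 °C; each point is 1 library. The 3 genes in the upper row have their highest level at 3 h, and the 3 in the lower row their lowest.

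The share of genes that differed at 3 h, in either direction, varied with the gene model. Identifiers end in a model version, and of the 3623 genes compared with version 1, 99.9% had a length that is a multiple of 3, so these are coding lengths without UTRs. For version 2 models this was so in 32.7%. The call of 4-fold higher was met by 73 version 1 genes (2.01%) and by 124 of 10217 version 2 genes (1.21%). When version 1 genes were put into 5 length classes of near equal size, the shares were 2.90% up to 576 bases, 3.57% from 579 to 930 bases, 1.94% from 933 to 1305 bases, 0.96% from 1308 to 1839 bases and 0.69% above that. Version 2 genes showed no such order, with 1.17% in the shortest class and 0.93% in the longest. For a 2-fold difference the version 1 shares were 7.17% and 9.05% in the shortest classes and 3.60% in the longest. The downward shares had a like order. From the shortest to the longest class, 2.07%, 2.47%, 1.94%, 1.24% and 0.69% of version 1 genes were 2-fold or more lower at 3 h. Among version 2 genes the downward shares also fell, from 1.22% and 1.12% through 0.78% and 0.98% to 0.54%. Over all lengths, 1.68% of version 1 and 0.93% of version 2 genes were 2-fold or more lower. No test was made of these shares. Version 1 genes were also the less abundant, with a median of 17.9 CPM over the 4 libraries against 24.5 CPM for version 2. Within the class of 5 to 10 CPM, 2.73% of version 1 and 1.13% of version 2 genes were higher. From 10 to 20 CPM the shares were 1.29% and 0.94%, and from 20 to 50 CPM 2.73% and 1.27%. Only from 50 CPM on was the version 1 share the lower, at 0.98% and 1.45%. The part of level and length in the difference between versions was not tested.

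The higher genes were on all 12 chromosomes, at shares from 0.70% of the genes compared on chromosome 9 (7 of 1006) to 2.55% on chromosome 10 (23 of 902), beside 1.42% overall. Chromosomes 3 and 4 had 2.02% and 1.99%. Read along the identifiers, which by convention follow gene order, 28 of the 197 had another higher gene within 5 places, as 14 pairs. Of the 872 genes compared that lay within 5 places of a higher gene, 28 (3.21%) were higher themselves. None of the 872 was 4-fold lower, beside 0.0578% of all genes compared, a share too low for this to set them apart. In 1 pair on chromosome 1 the genes had 7092 and 10682 reads at 3 h and 101 and 913 reads at 0 h. In a pair on chromosome 6 they had 1145 and 983 reads at 3 h and 21 and 66 reads at 0 h. Overlapping neighbours can share reads, and the strand setting of the counting is not given in the sources used here.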

How the data were processed

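Members and lists were chosen with earlier results of these data known. Per the file headers, the authors deposited the unique read count of a gene, its length, the percent of it covered and an RPKM, which is per gene length and library total. Aligner, counter and genome build are not given in the sources used. Depth, in units of 1000000 reads, was 36.1 at 3 h and 38.5 at 0 h (35.7 and 37.4 at 24 and 48 h). Counts were scaled with TMM (edgeR 4.0.16, R 4.3.3; used for scaling only) over the 4 libraries. Genes listed in all 4 with a mean of at least 5 CPM were kept. Ratios are differences of log2(CPM + 0.135), and a gene was called at 4-fold. At 5 CPM, about 185 reads, equal counts have an interval of -0.30 to 0.30 in log2. Intervals and the 3-read floor cover counting error only, since reads are not independent molecules. The computation was tested on simulated data. Names came from text in the deposited lists, since none of the 41476 RefSeq genes (assembly SLM_r2.1) carries these identifiers. Named were the largest ratio, smallest ratio, largest gain and largest fall, plus genes with a name in the files; the P450 group was chosen after the text was seen, and the other functional lists could not be used, for want of names. The alternatives tried were scaling by DESeq2 1.42.0 or by plain totals, other pseudocounts, other filters and other thresholds.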

Additional observations from a re-analysis of the deposited data

Results flagged for a closer look

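Genes with no read at 0 h stand outside the ratios. At 3 h, 883 of them had reads, beside 23166 genes with reads at both times. Of the 883, 101 had over 3 reads, where 3 is taken as the limit for a 0 h count of 0, and 5 had at least 50 reads. Of the 101, 80 had reads at 24 h and 81 at 48 h. The highest of the 101 had 516 reads at 3 h, and 5 and 3 reads at 24 and 48 h. Its 3 h level was 192-fold above the 0 h limit, without the counting error of the 516 reads. In the opposite direction 1059 genes had reads at 0 h and none at 3 h. Of these, 115 had over 3 reads at 0 h, with none at 50 or more and a highest count of 21. Of the 115, 86 had reads at 24 h and 92 at 48 h.

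Solyc08g080540.2.1 had ratios to 0 h of opposite signs, with a log2 ratio of -3.13 at 3 h and of 2.13 and 2.07 at 24 and 48 h. With a pseudocount of 25 reads its 3 h ratio was -1.81. Its levels were 2.13 CPM at 0 h and 0.12 CPM at 3 h, then 9.76 and 9.37 CPM at 24 and 48 h. It passed the 5 CPM filter on the mean only through these later levels. The filter thus required a level above 0 h at 24 or 48 h, and the opposite signs are no separate result. The difference between times was not tested, since each time has 1 library.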

How the results depend on the processing

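No paired analysis was possible because there is 1 library at each time, and no replicate could be left out. DESeq2 size factors, plain totals and a pseudocount of 0.5 reads kept the 4-fold counts within 1.5 times (182 to 206 higher, 7 to 12 lower). A pseudocount of 25 reads gave 178 higher and 4 lower, no filter 321 and 41, a 20 CPM filter 112 and 2, a 2-fold limit 659 and 156, and an 8-fold limit 70 and 1. Fewer or more genes, or another limit, move such counts by construction. The filters on the 0 h library (115 and 14) and on the 3 h library (248 and 3) were chosen after seeing the data. Higher genes were at least 80.9% of the genes called under each of these settings. Under 4 scalings and pseudocounts none of the 24 ratios of 6 named genes turned sign. With 25 reads that of Solyc08g080540.2.1 was -1.81, short of 4-fold, and that of Solyc11g071740.1.1 was 6.61. The median log2 ratio of all genes was -0.06 with plain totals, and the kinase median was then -0.05.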
